A study of Mus musculus with 6 samples.

Results

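The genes described here make and recycle glutathione, reduce peroxides and superoxide, conjugate reactive compounds to glutathione, or belong to the thioredoxin system. They were chosen by symbol: glutathione S-transferases (Gst followed by a class letter and a number, and Mgst1, Mgst2 and Mgst3), glutathione peroxidases (Gpx), peroxiredoxins (Prdx), every symbol that starts with Txn, superoxide dismutases (Sod1, Sod2 and Sod3), and Gsr, Gclc, Gclm, Gss, Cat, Nqo1 and Srxn1. This gave 71 of the 34652 genes in the table, 4 of them annotated as pseudogenes. All 6 bulk RNA libraries came from the cerebrospinal fluid of tamoxifen-treated Cx3cr1CreER:mTmG mice, 12 days after inoculation of LLC-LeptoM, a leptomeningeal derivative of Lewis lung carcinoma. In these mice Cre recombinase under the Cx3cr1 promoter turns on GFP after tamoxifen, so GFP marks cells that expressed Cx3cr1 while the drug acted, whatever their type. The 3 resident macrophage libraries (dLAM in the labels) were sorted as CD45+CD11b+F4/80+Ly6C-GFP+ cells. The 3 monocyte-macrophage libraries mixed 2 GFP- fractions, CD45+CD11b+F4/80+ cells and CD45+CD11b+F4/80lowLy6C+ cells. Tumor, tamoxifen, reporter and Cre were common to both groups, so no library here shows the untreated or tumor-free state. Strain, sex and age, the number of mice behind a library, and whether libraries were separate mice were not stated in the labels.

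Glutathione is made from glutamate, cysteine and glycine by glutamate-cysteine ligase and glutathione synthetase. Glutathione peroxidases spend it on peroxides, transferases couple it to electrophiles, and glutathione reductase restores its reduced form with electrons from NADPH. Thioredoxin, thioredoxin reductase and the peroxiredoxins form a parallel NADPH-driven chain. Macrophages and neutrophils use both systems, and their own NADPH oxidase produces superoxide during an oxidative burst. Many of these genes are known targets of the transcription factor NRF2, which binds antioxidant response elements.

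The values are FPKM, deposited by the authors, that is fragments scaled by gene length and library total. Of the 71 genes, 44 reached 1 FPKM in at least 3 of the 6 libraries and were tested. The other 27 were not: 6 were listed at 0 in every library, and the highest value among them was 2.31 FPKM (Mgst2). Gstm5 and Gstk1 passed this filter through the resident libraries alone, so the filter itself favoured a difference, and no p is given for them or for other genes that passed in 1 group only. Txnrd3 reached 1 FPKM in 1 monocyte-macrophage library. Differences are log2 fold changes, resident minus monocyte-macrophages on log2(FPKM + 1), a scale on which the change of weakly expressed genes is understated. A gene was called at a limma adjusted p under 0.05, with the adjustment over all 11317 genes tested. Of 8 macrophage markers listed, 3 were called higher in the resident libraries and 1, Lyz2, lower. Ptprc (CD45) stood at 46.4 to 54.1 FPKM and Itgam (CD11b) at 1.96 to 3.12 in all libraries. Csf1r was at 219 to 276 FPKM in the resident and 104 to 147 in the monocyte-macrophage libraries. Mertk was at 17.1 to 18.9 against 0.789 to 3.65. All 10 border macrophage markers listed were called higher in the resident libraries, 4 of which passed the filter there alone, and all 8 classical monocyte markers lower. Estimated depth was 1.23e+07 to 1.70e+07 fragments a library, and libraries 3 of the resident and 2 of the monocyte-macrophage group had more Y-linked RNA than the other 4 (Ddx3y 10.1 and 10.6 FPKM against 1.56 to 2.69).

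Of the 44 genes tested, 14 (31.8%) were called, against 30.5% of all genes tested, so the share changed was near the background. By direction, 4 were higher in the resident macrophages (9.09%, background 19.9%) and 10 were lower (22.7%, background 10.6%). Leaving aside genes that passed the filter in 1 group only, 3 of 42 were higher (7.14%, against 16.1% of 10674 genes) and 10 lower (23.8%, against 10.6%). Dividing each library by its FPKM sum (the TPM scale) gave 6 higher and 8 lower. Without resident library 2 there were 2 higher and 6 lower, and without resident library 3 or monocyte-macrophage library 2 there were 2 higher. The median log2 fold change of the 44 was -0.11, beside 0.06 for all genes tested. That median of all genes was 0.10 for TPM, 0.00 for median-of-ratios scaling and -0.05 after quantile normalization. With no test applied, the 3 resident values all lay above the 3 monocyte-macrophage values for 9 of the 44 and below them for 13, 22 in all, while 29.3% of all genes tested lay above and 16.9% below (46.2% together). As fitted, 5 called genes differed by 1 or more on the log2 scale: Mgst1, Gsr, Gstm1 and Gstm2-ps1, which were lower, and Txnrd3, which was higher. These are bulk libraries, in which fewer cells of a type and less RNA per cell cannot be told apart. Summed over all 71 genes, the libraries held 995, 880 and 1008 FPKM in the resident group and 1488, 1473 and 1459 in the monocyte-macrophages. A few abundant genes weigh most in this sum: Gsr averaged 76.9 against 347 FPKM, Sod1 155.5 against 255 and Gpx1 117 against 168. The 6 genes of the thioredoxin system summed to 213, 193 and 220 FPKM in the resident and 213, 220 and 201 in the monocyte-macrophage libraries.

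**Figure D1:**
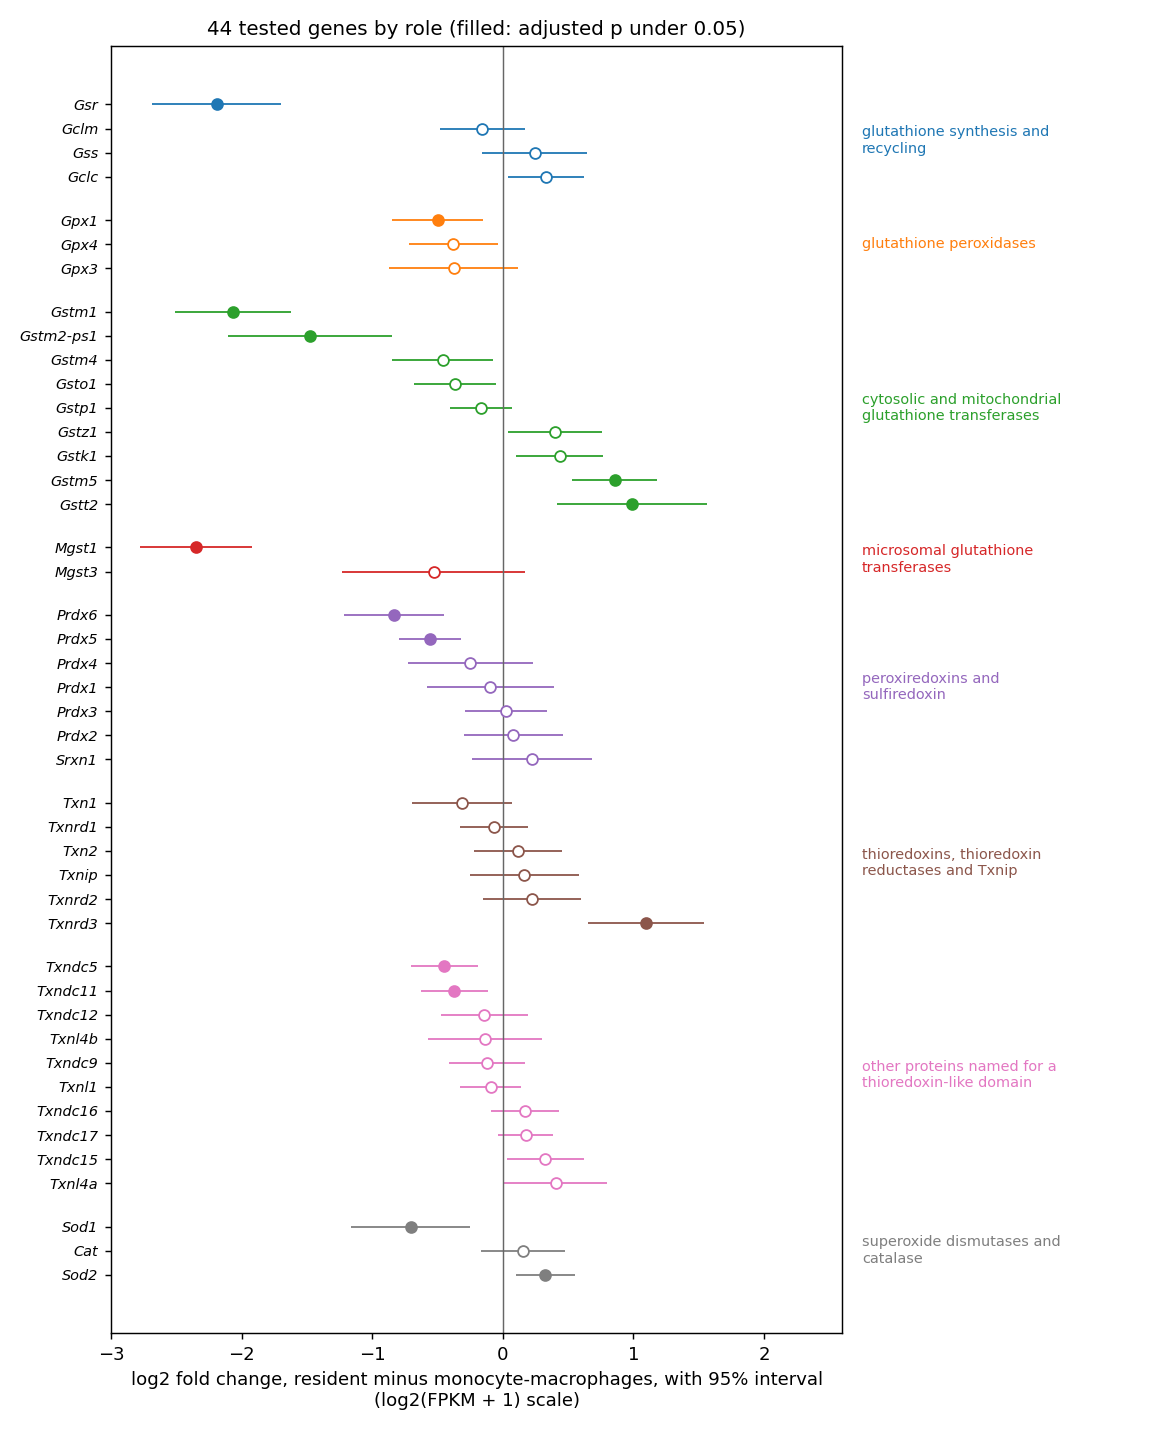
Log2 fold change (resident minus monocyte-macrophages, log2(FPKM + 1) scale, x axis) with its 95% interval for the 44 tested genes, grouped by role; filled points had a limma adjusted p under 0.05. Gsr, Gstm1 and Mgst1 lie at -2.19, -2.06 and -2.35, while Txn1, Txn2, Txnrd1, Txnrd2 and Txnip lie between -0.31 and 0.22.

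In glutathione synthesis and recycling, the recycling enzyme fell and the synthetic enzymes were not called. Gsr, glutathione reductase (chr8:33652523-33698163, mm10), stood at 82.0, 53.8 and 94.9 FPKM in resident libraries 1, 2 and 3 and at 307, 392 and 342 in monocyte-macrophage libraries 1, 2 and 3. The groups did not overlap, and the lowest monocyte-macrophage value was more than 3 times the highest resident value. Mean levels were 76.9 ± 21 FPKM (SD, n = 3) against 347 ± 43.0 (SD, n = 3), 4.51-fold higher in the monocyte-macrophages (log2 fold change -2.19, SE 0.21, limma adjusted p = 3.20e-04). By mean level Gsr ranked 85 of the 11317 genes in the monocyte-macrophages and 452 in the resident macrophages, and by size of fall it ranked 43. Gclc, the catalytic subunit of glutamate-cysteine ligase and the rate-limiting step of synthesis, was at 8.49, 9.35 and 9.88 FPKM against 7.45, 8.0 and 6.13. Its resident values all lay above the others, without passing the threshold (log2 fold change 0.33, SE 0.12, limma adjusted p = 0.0877). Gclm, the modifier subunit of that ligase, and Gss, glutathione synthetase, overlapped between groups, with log2 fold changes of -0.16 (limma adjusted p = 0.456) and 0.24 (limma adjusted p = 0.337). Exons of Gss overlap those of Acss2 and 2 antisense genes on the opposite strand, and without a stated strand setting their reads cannot be told apart.

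Gsr was set against other reducing enzymes within each library, since a ratio of 2 genes does not move with library scaling. The ratio of Gsr to Txnrd1, the cytosolic thioredoxin reductase, was 1.97, 1.48 and 2.08 in the resident libraries and 7.34, 8.45 and 8.30 in the monocyte-macrophages. Txnrd1 itself stayed within 36.5 to 46.4 FPKM in all 6 (log2 fold change -0.07, SE 0.11, limma adjusted p = 0.701, 95% interval -0.33 to 0.19), so the FPKM of the 2 reductases moved unequally. Gclc stood at 4.41, 5.38 and 4.60 times Gclm in the resident libraries and 4.06, 3.33 and 2.35 times in the others, again without overlap. For each of the 10 ratios computed the 2-sided exact permutation p was 0.1, the smallest that 3 libraries against 3 allow, and 0.1 after Benjamini-Hochberg adjustment. The pairs came from genes chosen with earlier results of these data known, and each except Gclc with Gclm held a called gene. Gstm5, set under Gstm1, passed the filter through the resident libraries alone. That all the ratios separated the groups is therefore no independent support.

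**Figure D2:**
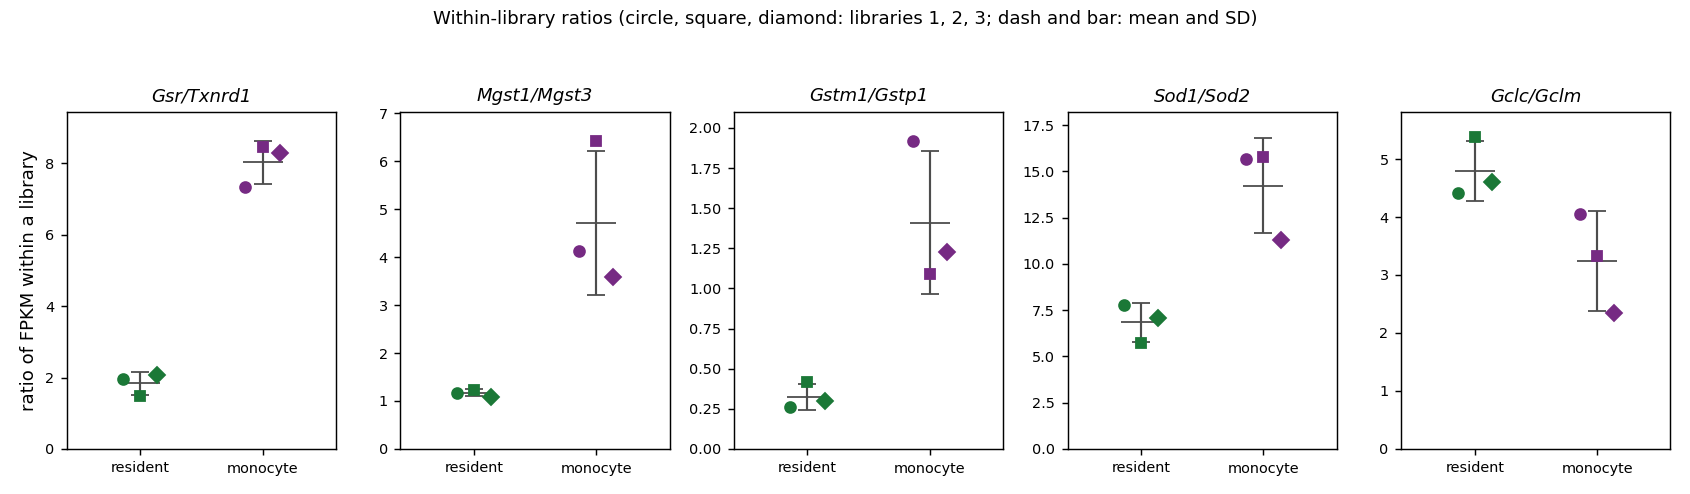
Ratio of 2 genes' FPKM within each library (y axis, linear, starting at 0) for 5 pairs; green points are resident and purple points monocyte-macrophage libraries, with mean and SD. Gsr/Txnrd1, Mgst1/Mgst3, Gstm1/Gstp1 and Sod1/Sod2 are lower in all 3 resident libraries, and Gclc/Gclm is higher.

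As fitted, the largest fall among the 44 genes was in a membrane-bound transferase. Mgst1 (chr6:138140316-138156755, mm10), microsomal glutathione S-transferase 1, conjugates glutathione and reduces lipid peroxides at the endoplasmic reticulum and outer mitochondrial membranes. Its level was 4.57, 3.21 and 4.81 FPKM in the resident libraries and 23.6, 21.3 and 31.7 in the monocyte-macrophage libraries, which did not overlap. The means were 4.20 ± 0.860 FPKM (SD, n = 3) against 25.5 ± 5.47 (SD, n = 3), a 6.08-fold higher level in the monocyte-macrophages (log2 fold change -2.35, SE 0.18, limma adjusted p = 1.31e-04), and the fall ranked 27 among all genes tested. Mgst3, a relative in the same membranes, spanned 2.59 to 4.40 FPKM against 3.31 to 8.84, with overlap (log2 fold change -0.53, SE 0.30, limma adjusted p = 0.231), and was called lower without monocyte-macrophage library 2 (limma adjusted p = 0.0396). Within a library Mgst1 was 1.18, 1.24 and 1.09 times Mgst3 in the resident group and 4.13, 6.43 and 3.59 times in the other. Mgst2 reached 0.542, 1.54 and 2.31 FPKM in the monocyte-macrophages and 0.490 to 0.773 in the resident libraries, too low to be tested.

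Among the called genes, 5 had an antioxidant response element core in a start-site window: Mgst1, Sod1, Txndc5, Txndc11 and Gstm5. Gstm5 was higher in the resident macrophages and passed the filter through them alone, and the others were lower. Windows of 4 called genes are shown: those of Mgst1, Sod1 and Gstm5, and that of Gstm1, from the same cluster as Gstm5, which holds no core. Each runs 5′ to 3′ on the gene's strand from 250 bases before to 50 after the start, from RefSeq on GRCm38.p6. Capitals mark the match to TGACNNNGC, or to its reverse complement where the match is on the other strand.
Mgst1, chr6:138140277-138140576, + strand: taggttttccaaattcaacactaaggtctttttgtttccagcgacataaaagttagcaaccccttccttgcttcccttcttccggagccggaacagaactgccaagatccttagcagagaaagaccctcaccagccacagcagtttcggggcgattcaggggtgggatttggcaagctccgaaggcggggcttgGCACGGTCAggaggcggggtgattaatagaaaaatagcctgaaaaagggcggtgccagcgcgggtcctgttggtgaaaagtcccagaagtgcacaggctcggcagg
Sod1, chr16:90220512-90220811, + strand: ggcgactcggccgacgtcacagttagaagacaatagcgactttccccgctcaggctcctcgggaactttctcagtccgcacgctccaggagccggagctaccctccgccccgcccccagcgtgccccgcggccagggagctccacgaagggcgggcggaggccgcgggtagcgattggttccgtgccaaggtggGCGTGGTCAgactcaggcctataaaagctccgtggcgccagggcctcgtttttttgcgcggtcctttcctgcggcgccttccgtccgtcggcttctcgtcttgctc
Gstm5, chr3:107895604-107895903, + strand: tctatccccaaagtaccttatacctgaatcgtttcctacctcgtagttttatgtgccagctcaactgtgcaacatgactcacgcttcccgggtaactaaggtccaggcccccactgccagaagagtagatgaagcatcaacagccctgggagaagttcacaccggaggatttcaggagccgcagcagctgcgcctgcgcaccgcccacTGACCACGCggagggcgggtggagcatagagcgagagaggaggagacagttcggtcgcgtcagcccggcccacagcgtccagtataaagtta
Gstm1, chr3:108017769-108018068, - strand: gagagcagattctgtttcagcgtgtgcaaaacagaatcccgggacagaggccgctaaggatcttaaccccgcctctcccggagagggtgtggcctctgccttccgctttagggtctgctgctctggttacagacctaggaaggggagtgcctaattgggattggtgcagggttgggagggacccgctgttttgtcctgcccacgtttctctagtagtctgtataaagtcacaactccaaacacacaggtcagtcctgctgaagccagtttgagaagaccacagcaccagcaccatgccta
The Mgst1 and Sod1 matches start at -56 on the reverse strand and the Gstm5 match at -42 on the forward strand, counted from the start site. Mgst1 has a second RefSeq window, chr6:138141337-138141636, which held no match, and neither of the 2 windows of Gstm1 held one. RefSeq windows were found for 58 of the 71 genes, and among the called genes Gsr, Prdx6, Gstt2 and Gstm2-ps1 had no entry. TGACNNNGC, searched on both strands, was in the windows of 12 of the 58 genes (20.7%), against 14% of 27025 genes. Some genes have several windows, and counted by window it was in 12 of 76 (15.8%), against 12.4% of 32851. Its TGAC letters are shared with AP-1 and CREB sites. The core was in 1 of the 3 genes called higher that had an entry, Gstm5, whose choice for testing rested on its resident values. It was in 4 of the 7 called lower and in 4 of the 27 not called (Gclm, Prdx1, Srxn1 and Txnrd1). Of the 21 genes not tested that had an entry, 3 held it. A C/EBP site, TTGCNNAA on both strands, was in 12.1% of the 58 genes and 12.2% of all genes, with 1 match in the Mgst1 window at -83. These are matches of letters and show no binding.

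The soluble transferases had 2 higher, Gstm5 among them, 2 lower and 5 not called of the 9 tested among 22 listed. Of all genes tested, 19.9% were higher and 10.6% lower. Gstm1 (chr3:108012255-108017973), a mu-class transferase, was at 4.24, 5.67 and 4.55 FPKM in the resident and 31.2, 19.5 and 20.4 in the monocyte-macrophage libraries. No values overlapped, and the means were 4.82 ± 0.750 FPKM (SD, n = 3) against 23.7 ± 6.52 (SD, n = 3), 4.92-fold higher in the monocyte-macrophages (log2 fold change -2.06, SE 0.19, limma adjusted p = 2.69e-04). Gstm5, at the other side of the cluster of mu-class genes on chromosome 3 (chr3:107895821-107898686), was at a low level, 1.33, 1.01 and 1.45 FPKM against 0.146, 0.314 and 0.283. Its resident values lay above the others, but its choice for testing rested on those same values. Those values correspond to an estimated 16 to 25 fragments a resident library and 3 to 6 a monocyte-macrophage library, and it was no longer called with quantile normalization. An antisense gene over 13.9% of its exons, 4933431E20Rik, was at or under 0.014 FPKM. Between them lie Gstm7, Gstm6, Gstm3 and Gstm2, all at or under 0.279 FPKM in every library. Gstm4, the next gene after Gstm1, had 1.57, 2.0 and 2.26 FPKM against 3.01, 2.42 and 3.77, without overlap but short of the threshold (log2 fold change -0.46, SE 0.17, limma adjusted p = 0.0747), and was called lower without monocyte-macrophage library 2 (limma adjusted p = 0.0416), under median-of-ratios scaling (0.0494) and after quantile normalization (0.0176).

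Gstm2-ps1, a processed pseudogene on chromosome 5, was at 1.96, 1.73 and 0.613 FPKM and 7.56, 4.44 and 5.01 (log2 fold change -1.48, SE 0.27, limma adjusted p = 0.00535). Of its 50-base stretches 46.9% also occur in other genes, 35.4% in Gstm1, so its reads and those of Gstm1, 18.9% of whose stretches are shared, may be exchanged by alignment. Gstt2, a theta-class transferase, was higher in the resident libraries at 1.73, 3.50 and 4.11 FPKM against 1.07, 0.727 and 1.24, with resident library 1 closest to the other group (log2 fold change 0.99, SE 0.24, limma adjusted p = 0.0192). The Gstt2 call was lost without resident library 2 or 3 or monocyte-macrophage library 2 (limma adjusted p = 0.0758, 0.0623 and 0.0535), and with no filter (0.052). Gstp1, the pi-class transferase and by mean over the 6 libraries the most abundant of the soluble transferases, stood at 13.6 to 16.2 FPKM in the resident and 16.3 to 17.9 in the monocyte-macrophage libraries, without overlap and without a call (log2 fold change -0.17, SE 0.10, limma adjusted p = 0.261). It shares 33.7% of its 50-base stretches with other genes, chiefly Gstp2. The ratio of Gstm1 to Gstp1 was 0.263, 0.416 and 0.297 in the resident libraries and 1.92, 1.09 and 1.23 in the monocyte-macrophages, so Gstm1 stood below Gstp1 in every resident library and above it in every monocyte-macrophage library. Gsto1, an omega-class transferase, was not called (log2 fold change -0.37, SE 0.13, limma adjusted p = 0.0768), but was called lower without resident library 3 (limma adjusted p = 0.0356) and with median-of-ratios scaling (0.0379). Gstk1, the mitochondrial kappa-class transferase, and Gstz1, which handles breakdown products of tyrosine, had resident values all above the others, with log2 fold changes of 0.44 and 0.40 (limma adjusted p = 0.0889), neither called. Gstk1 passed the filter through the resident libraries alone, which favoured a higher value there. Its calls under some alternatives are therefore no support for a difference. Gsta4, the alpha-class transferase of lipid aldehydes, was not tested at 1.06, 0.425 and 0.589 FPKM against 0.076, 0.223 and 0, and Gsta1 and Gsta2 were listed at 0 throughout.

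Among the glutathione peroxidases, 1 of 3 tested was called lower, where 10.6% of all genes tested were lower. Gpx1, the abundant cytosolic selenoenzyme that reduces hydrogen peroxide, was nearly level within the resident group at 118, 118 and 116 FPKM and spread more widely in the monocyte-macrophages at 179, 133 and 193. The groups did not overlap, with means of 117 ± 1.11 FPKM (SD, n = 3) against 168 ± 31.2 (SD, n = 3) and a log2 fold change -0.50, SE 0.15, limma adjusted p = 0.0389. That call was lost without resident library 1, 2 or 3 or monocyte-macrophage library 1 or 3 (limma adjusted p = 0.103, 0.104, 0.106, 0.0941 and 0.0944). With no filter, after quantile normalization and with a replicate block it was lost too (limma adjusted p = 0.0711, 0.071 and 0.0652). Gpx4, which reduces lipid peroxides in membranes and restrains ferroptosis, was at 13.4, 12.5 and 11.9 FPKM against 15.5, 14.3 and 20.8, below in all 3 resident libraries but not called (log2 fold change -0.38, SE 0.15, limma adjusted p = 0.09). It shares 34.7% of its 50-base stretches with pseudogene copies. Gpx3, the secreted enzyme, overlapped between groups (log2 fold change -0.38, SE 0.21, limma adjusted p = 0.226). The other 5, Gpx2, Gpx5, Gpx6, Gpx7 and Gpx8, were at or under 0.552 FPKM everywhere.

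Peroxiredoxins reduce peroxides with a reactive cysteine, and 2 of the 7 genes tested in this group, which includes sulfiredoxin, fell. Of all genes tested, 10.6% were lower. Prdx6, the 1-cysteine member that uses glutathione and repairs phospholipids, was at 11, 9.31 and 12.8 FPKM in the resident and 16.5, 23.8 and 21.1 in the monocyte-macrophage libraries. Its groups did not overlap, and the mean was 1.86-fold higher in the monocyte-macrophages (log2 fold change -0.83, SE 0.16, limma adjusted p = 0.00718). Prdx5, found in mitochondria and peroxisomes, was at 62.0, 54.7 and 64.4 FPKM against 92.3, 83.9 and 91.1, with tight groups that did not overlap (log2 fold change -0.56, SE 0.10, limma adjusted p = 0.0054). On the opposite strand Trmt112 overlaps 19.1% of the Prdx5 exons, and at 1.94 to 4.89 FPKM it was not called (limma adjusted p = 0.986). Prdx1, cytosolic, Prdx2, abundant in red cells, Prdx3, mitochondrial, and Prdx4, of the endoplasmic reticulum, overlapped between groups with log2 fold changes of -0.10, 0.08, 0.02 and -0.25 (limma adjusted p = 0.773, 0.756, 0.916 and 0.413). Signs for the first 3 turned under at least 1 alternative. Srxn1, sulfiredoxin, which restores overoxidized peroxiredoxins, ranged over 3.54 to 6.58 FPKM with overlap (log2 fold change 0.22, SE 0.20, limma adjusted p = 0.442).

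In the thioredoxin system 1 of 6 genes was called, the least abundant by mean over the 6 libraries apart from Txnrd2. It was higher, as were 19.9% of all genes tested. Txnrd3, the thioredoxin-glutathione reductase best known from testis, was at 2.86, 2.18 and 2.56 FPKM in the resident libraries and 0.644, 1.08 and 0.311 in the monocyte-macrophages. The groups did not overlap, with a 3.73-fold higher mean in the resident group (log2 fold change 1.10, SE 0.19, limma adjusted p = 0.0042). Its level remained far under that of Txnrd1, which exceeded it 14.6, 16.8 and 17.9 times in the resident and 64.9, 43.1 and 133 times in the monocyte-macrophage libraries. Txn1, cytosolic thioredoxin, was at 54.5, 46.5 and 53.0 FPKM against 58.3, 54.1 and 82.2, with the high value in monocyte-macrophage library 3 (log2 fold change -0.31, SE 0.16, limma adjusted p = 0.199). Txnip, which binds and inhibits thioredoxin and limits glucose uptake, was among the most abundant of all 71 genes at 105, 95.5 and 109 FPKM against 102, 109 and 68.9 (log2 fold change 0.17, SE 0.18, limma adjusted p = 0.529, 95% interval -0.25 to 0.58). The antisense gene Gm15441 overlaps 19.4% of the Txnip exons and was at 0.483 to 1.36 FPKM. Txn2 and Txnrd2, the mitochondrial pair, overlapped as well, with log2 fold changes of 0.12 (limma adjusted p = 0.599) and 0.22 (limma adjusted p = 0.343).

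The proteins named for a thioredoxin-like domain, most of them not part of the antioxidant chain, had 2 called lower of 10 tested. Of all genes tested, 10.6% were lower. Txndc5, a disulfide isomerase of the endoplasmic reticulum, was at 17.5, 15.1 and 15.6 FPKM and 23.8, 19.9 and 23.2 (log2 fold change -0.45, SE 0.11, limma adjusted p = 0.0185), and Txndc11, a protein of the same compartment, at 2.93, 3.13 and 3.11 and 3.95, 4.49 and 4.32 (log2 fold change -0.37, SE 0.11, limma adjusted p = 0.0388). Neither pair of groups overlapped, but both differences were under 1.5-fold. Txndc5 lost its call without resident library 2 or 3 or monocyte-macrophage library 1 (limma adjusted p = 0.0751, 0.0648 and 0.0538). Txndc11 lost it without resident library 1, 2 or 3 or monocyte-macrophage library 2 or 3 (limma adjusted p = 0.124, 0.104, 0.0979, 0.0902 and 0.0747). The Txndc11 call was also lost with no filter, on the TPM scale and with a replicate block (limma adjusted p = 0.0572, 0.0888 and 0.0811). The 8 not called had log2 fold changes from -0.14 (Txndc12) to 0.40 (Txnl4a), and Txnl4a was called higher without monocyte-macrophage library 1 (limma adjusted p = 0.0168). Txndc15 (log2 fold change 0.32, SE 0.13, limma adjusted p = 0.0925) was called higher on the TPM scale (limma adjusted p = 0.0455) and with a term for Y-linked RNA (0.0252). Txndc17, a cytosolic disulfide reductase and the most abundant of these by mean, was at 25.1, 22.8 and 22.4 FPKM against 20.3, 20.1 and 21.4 (log2 fold change 0.18, SE 0.09, limma adjusted p = 0.187).

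The superoxide dismutases moved in opposite directions by small amounts. Sod1, the cytosolic copper-zinc enzyme and by mean the most abundant member after Gsr in the monocyte-macrophages, was at 166, 125 and 175 FPKM in the resident and 291, 277 and 197 in the monocyte-macrophage libraries. Resident library 3 and monocyte-macrophage library 3 came close, without overlap (log2 fold change -0.70, SE 0.20, limma adjusted p = 0.0297). Sod2, the mitochondrial manganese enzyme, was at 21.4, 22 and 24.7 FPKM against 18.6, 17.6 and 17.5, above in all 3 resident libraries by a mean of 1.27-fold (log2 fold change 0.33, SE 0.10, limma adjusted p = 0.0366). Sod1 lost its call without resident library 1 or 2 or monocyte-macrophage library 1 or 2 (limma adjusted p = 0.0649, 0.102, 0.0764 and 0.0764). The Sod1 call was also lost on the TPM scale, after quantile normalization, with no filter and with a replicate block (limma adjusted p = 0.0563, 0.09, 0.0645 and 0.0624). Sod2 lost its call without resident library 1, 2 or 3 or monocyte-macrophage library 1, 2 or 3 (limma adjusted p = 0.0653, 0.0849, 0.128, 0.0559, 0.0788 and 0.0766). The Sod2 call was also lost under median-of-ratios scaling, with a replicate block and with no mean-variance trend (limma adjusted p = 0.0875, 0.0942 and 0.0559). The Sod1 to Sod2 ratio within a library was 7.76, 5.70 and 7.08 in the resident and 15.7, 15.8 and 11.3 in the monocyte-macrophage libraries. Cat, catalase, overlapped at 21.7 to 28.9 FPKM (log2 fold change 0.16, SE 0.14, limma adjusted p = 0.452), and secreted Sod3 was at or under 0.261 FPKM. Nqo1, quinone oxidoreductase 1 and a standard readout of NRF2, was at 0.207 to 0.611 FPKM in the 6 libraries and was not tested.

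**Figure D3:**
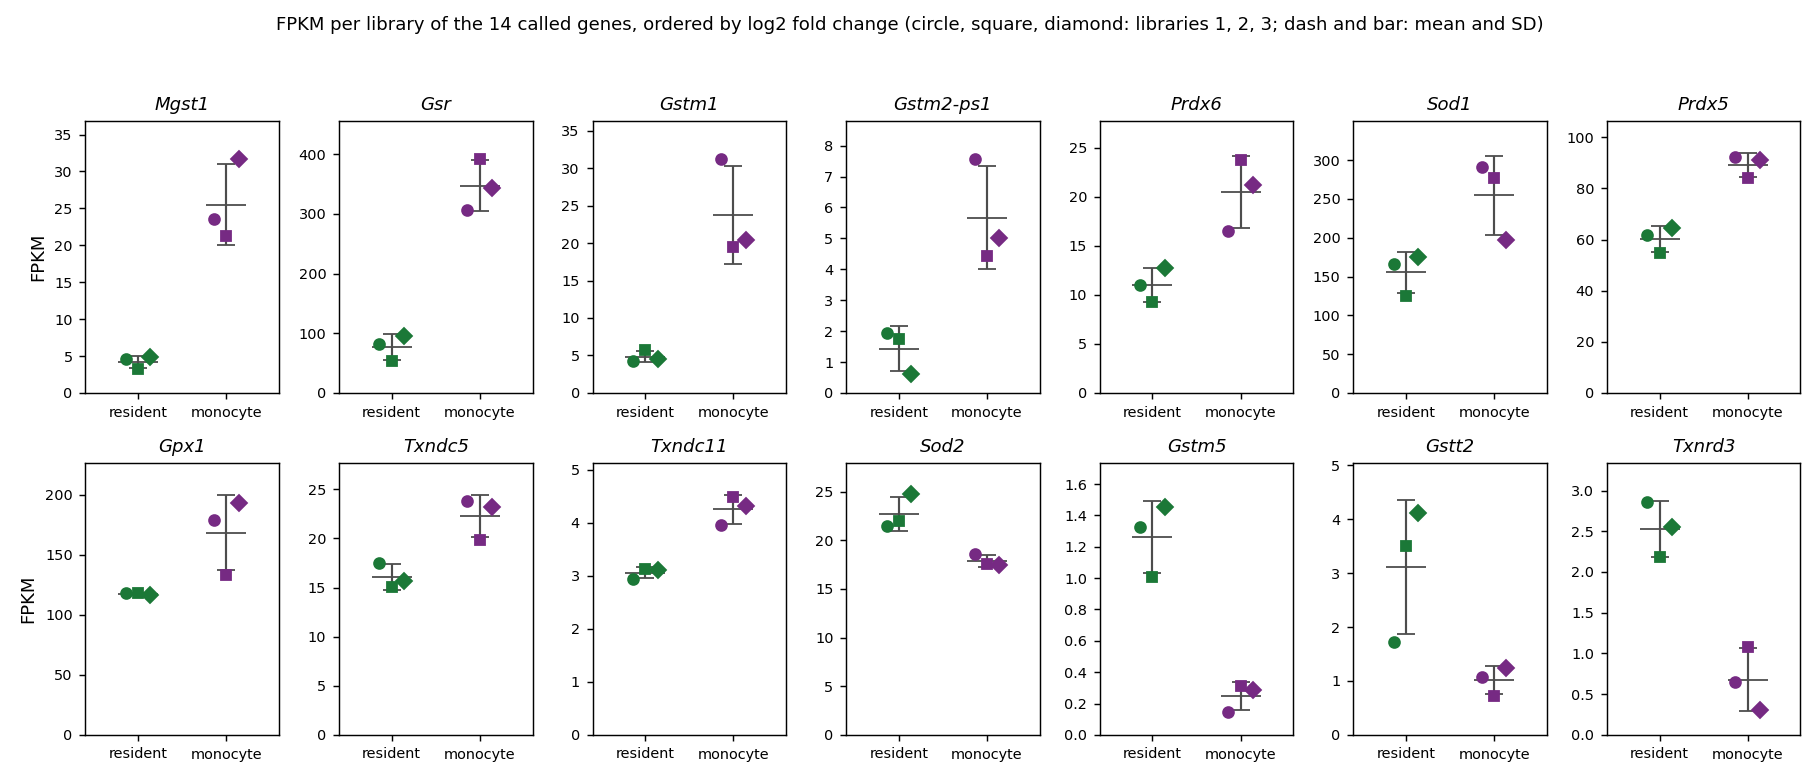
FPKM per library (y axis, linear, starting at 0) for the 14 called genes, ordered by log2 fold change; green points are resident and purple points monocyte-macrophage libraries, dash and bar are mean and SD. The resident points lie below for the first 10 genes, Mgst1 to Txndc11, and above for Sod2, Gstm5, Gstt2 and Txnrd3.

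The regulators of the NRF2 response gave 2 higher and 1 lower of 12 tested (16.7% and 8.33%), beside 19.9% and 10.6% of all genes tested. Nfe2l2, which encodes NRF2, was at 54.3, 51.7 and 40.2 FPKM in the resident and 49.2, 46.5 and 39.1 in the monocyte-macrophage libraries (log2 fold change 0.11, SE 0.14, limma adjusted p = 0.611, 95% interval -0.23 to 0.45). Keap1, its inhibitor, and Bach1, a repressor at the same elements, were not called, with log2 fold changes of -0.11 (limma adjusted p = 0.563) and -0.34 (limma adjusted p = 0.122). Bach2, a repressor related to Bach1 and 1 of the 2 higher, was at 2.05 ± 0.159 FPKM (SD, n = 3) against 0.363 ± 0.118 (SD, n = 3), and passed the filter through the resident libraries alone. Trim21, a ubiquitin ligase, was higher (log2 fold change 0.42, SE 0.11, limma adjusted p = 0.0218) and Cul3, the cullin that works with KEAP1, lower (log2 fold change -0.45, SE 0.12, limma adjusted p = 0.0272). Trim21 lost its call without resident library 1 or 2 or monocyte-macrophage library 2 (limma adjusted p = 0.0546, 0.0813 and 0.0534), and Cul3 without resident library 1 or 2 or monocyte-macrophage library 2 or 3 (0.093, 0.0993, 0.0594 and 0.0698).

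Known NRF2 target genes outside the 71 went both ways, with 6 higher and 7 lower of 21 tested (28.6% and 33.3%, beside 19.9% and 10.6% of all genes) and a median log2 fold change of 0.08. Of the 6 higher, Ephx1 and Akr1b8 passed the filter through the resident libraries alone. Ephx1, an epoxide hydrolase, was at 4.71 ± 0.634 FPKM (SD, n = 3) against 0.335 ± 0.208 (SD, n = 3). Cbr1, a carbonyl reductase, and Blvrb, biliverdin reductase B, rose by 1.28 on the log2 scale (limma adjusted p = 7.17e-04) and 1.40 (0.0038). Hmox1, heme oxygenase 1, was at 83.5, 57.3 and 98.2 FPKM against 40.7, 48.9 and 38.9, without overlap (log2 fold change 0.85, SE 0.20, limma adjusted p = 0.0152), and lost its call without resident library 1 or monocyte-macrophage library 3 (limma adjusted p = 0.059 and 0.0504). The 7 lower were G6pdx, Pgd, Taldo1 and Idh1 of the NADPH-supplying pathways, the exporter Abcc4, and Ugdh and Esd, with log2 fold changes from -1.30 (Idh1, limma adjusted p = 0.00153) to -0.62 (Ugdh, 0.0132), of which Idh1, Ugdh and Esd were named after their values were seen. Slc7a11, the cystine carrier, overlapped widely at 4.35, 2.85 and 9.24 against 3.75, 10.2 and 4.96 FPKM (log2 fold change -0.20, SE 0.42, limma adjusted p = 0.769).

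The NADPH supply list was chosen with earlier results of these data known. It holds other enzymes of the supplying pathways beside those that make NADPH, which feeds both reductase systems. Of 13 tested, 6 were lower and 1 higher (46.2% and 7.69%, beside 10.6% and 19.9% of all genes). The median log2 fold change of the list was -0.32. G6pdx, glucose-6-phosphate dehydrogenase, the entry to the pentose phosphate pathway, was at 36.6, 33.3 and 32.6 FPKM in the resident and 82.7, 68.3 and 96.0 in the monocyte-macrophage libraries, without overlap (log2 fold change -1.23, SE 0.14, limma adjusted p = 5.38e-04). Pgd, the next dehydrogenase of that pathway, and Me2, a mitochondrial malic enzyme that yields mainly NADH, were lower, with log2 fold changes of -0.85 (limma adjusted p = 7.19e-04) and -1.04 (4.16e-04). Taldo1, transaldolase of the same pathway, was at 104 ± 7.23 FPKM (SD, n = 3) against 186 ± 12.3 (SD, n = 3), with a log2 fold change -0.83, SE 0.11, limma adjusted p = 0.00107. Mthfd1, the cytosolic folate enzyme, was the gene called higher (log2 fold change 0.87, SE 0.14, limma adjusted p = 0.00317), and 2 were called higher without monocyte-macrophage library 1. The NRF2 target and NADPH lists share G6pdx, Pgd, Taldo1 and Idh1.

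Genes of glutathione precursors, breakdown and export had 4 higher and 1 lower of 14 tested (28.6% and 7.14%, beside 19.9% and 10.6% of all genes), and 2 higher without resident library 1, 2 or 3. Lap3, leucine aminopeptidase, and Abcc1, an exporter of glutathione conjugates, rose by 1.23 on the log2 scale (limma adjusted p = 0.00197) and 0.73 (0.00535). Slc1a5, a neutral amino acid carrier, was higher (log2 fold change 0.46, SE 0.11, limma adjusted p = 0.0176), and its call was lost without resident library 1, 2 or 3 (limma adjusted p = 0.05, 0.0774 and 0.0527). Abcc4, a related exporter, was lower (log2 fold change -0.76, SE 0.10, limma adjusted p = 0.00134). Glutaredoxins and methionine sulfoxide reductases, which repair oxidized thiols and methionine, had 3 lower and none higher of 6 tested, where 10.6% of all genes were lower and 19.9% higher, and 1 lower without resident library 1, 2 or 3. The repair enzyme Msrb1, a selenoprotein, was at 48.0, 33.5 and 48.7 FPKM against 131, 118 and 148, without overlap (log2 fold change -1.60, SE 0.17, limma adjusted p = 4.25e-04). Msra (log2 fold change -0.81, SE 0.23, limma adjusted p = 0.0325) lost its call without resident library 1, 2 or 3 (limma adjusted p = 0.101, 0.0846 and 0.0793). Glrx, glutaredoxin 1 (log2 fold change -0.61, SE 0.18, limma adjusted p = 0.0384), lost it without resident library 1, 2 or 3 or monocyte-macrophage library 2 or 3 (limma adjusted p = 0.0554, 0.131, 0.0817, 0.0583 and 0.0802).

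Selenoproteins and their synthesis genes had 1 higher and 2 lower of 16 tested (6.25% and 12.5%, beside 19.9% and 10.6% of all genes), and 2 higher without monocyte-macrophage library 1. Sepp1, the secreted selenium carrier, was at 143, 121 and 116 FPKM in the resident libraries and 54.1, 37.1 and 38.2 in the monocyte-macrophages (log2 fold change 1.55, SE 0.16, limma adjusted p = 4.63e-04), while Sephs2, which makes the selenium donor, was lower (log2 fold change -0.81, SE 0.14, limma adjusted p = 0.0048). Selt, of the endoplasmic reticulum, was lower (log2 fold change -0.36, SE 0.10, limma adjusted p = 0.0382) and lost its call without resident library 1, 2 or 3 or monocyte-macrophage library 2 or 3 (limma adjusted p = 0.0902, 0.133, 0.0685, 0.0863 and 0.0907). Other protective genes had 6 higher and 2 lower of 18 tested (33.3% and 11.1%, beside 19.9% and 10.6% of all genes). Their median log2 fold change was 0.30. The sestrins Sesn3 and Sesn1, stress-induced regulators of growth signaling, rose by 1.40 on the log2 scale (limma adjusted p = 2.26e-04) and 1.23 (4.59e-04). Oxr1, oxidation resistance 1, and Nqo2, a quinone reductase related to Nqo1, fell by 0.92 on the log2 scale (limma adjusted p = 4.42e-04) and 0.75 (0.00806).

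**Figure D4:**
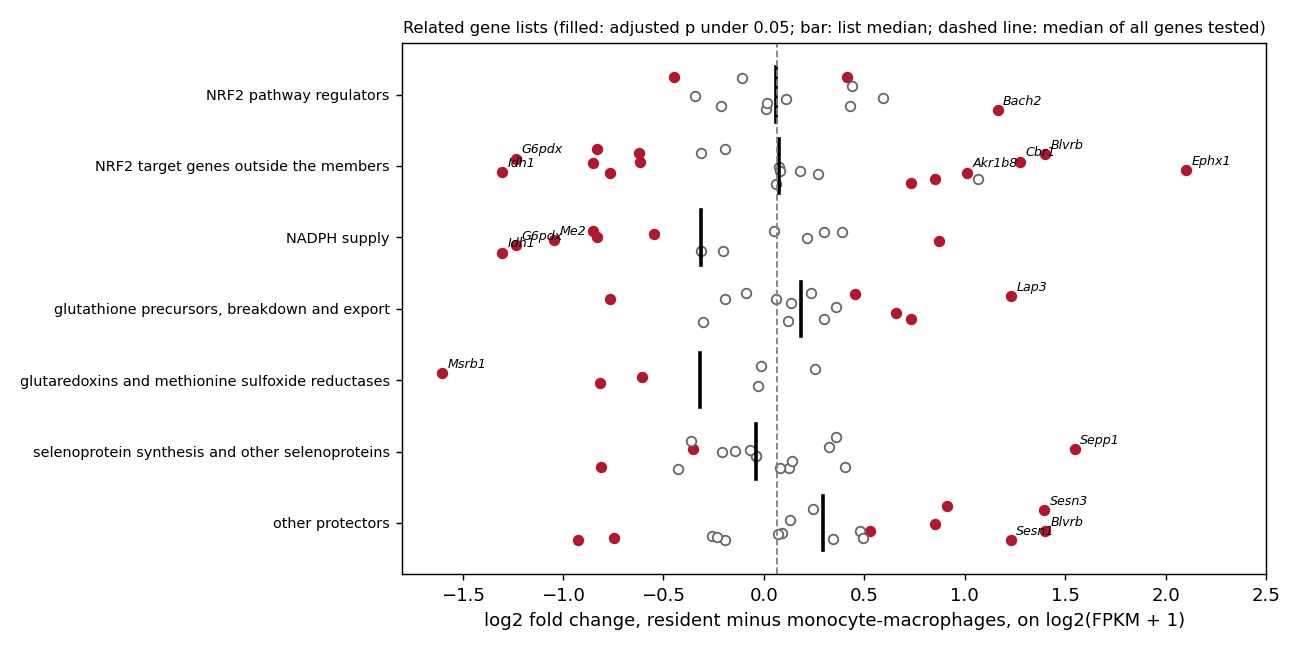
Log2 fold change (resident minus monocyte-macrophages, log2(FPKM + 1) scale, x axis) of the tested genes in 7 related lists (rows, with vertical jitter); filled points had a limma adjusted p under 0.05, short bars are list medians and the dashed line is the median of all genes tested. The NADPH list has 6 filled points on the lower side and 1 on the higher, while the NRF2 targets have 7 and 6. All 7 lists were chosen with earlier results of these data known.

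Markers of other cells also differed between the groups. Neutrophil and granulocyte precursor markers had 6 lower and none higher of 10 tested, 3 lower without resident library 1, 2 or 3 or monocyte-macrophage library 2, and sums of 1266 to 1647 FPKM in the resident and 1981 to 11960 in the monocyte-macrophage libraries. Ly6g, the neutrophil surface marker, was at 3.12, 2.54 and 1.58 FPKM against 0.972, 3.12 and 12.2, and Elane, a precursor protease, at 17.0, 16.1 and 12.6 against 83.6, 193 and 164. S100a8, a neutrophil and monocyte alarmin, was at 257, 201 and 200.5 FPKM against 297, 1110 and 2091. In monocyte-macrophage library 1, 7 of the 10 markers stood above every resident library, Ly6g and Retnlg below every one and Ltf within their range, while library 2 had 9 above and library 3 all 10. Classical monocyte markers, called lower in 8 of 8, summed to 843 to 1099 and 4073 to 5528 FPKM, and cell cycle genes, lower in 9 of 10, to 103 to 118 and 292 to 416. On the other side, T cell markers were higher in 10 of 10 (211 to 284 FPKM in the resident and 10.3 to 39.9 in the monocyte-macrophage libraries) and conventional dendritic cell markers in 7 of 8 (118 to 190 and 13 to 16.2). Mast cell, basophil and eosinophil markers were higher in all 4 tested of 8 (23.8 to 59.0 and 0.846 to 2.27), with Cpa3 and Mcpt4 listed at 0 in the monocyte-macrophages. Red cell markers (red cells are rich in Prdx2, Cat and Gpx1) summed to 7.72 to 10.1 and 0.0223 to 3 FPKM, with all 3 tested called higher. Carcinoma markers summed to 27.0 to 31.9 and 1.99 to 3.18 FPKM, and all 3 tested of 7 were called higher: Cdh1 at 21 to 22 against 1.39 to 2.20 FPKM, Epcam at 4.70 to 7.50 against 0.0720 to 0.279 and Krt18 at 1.10 to 1.69 against 0.210 to 0.522. The other 4, Krt7, Krt8, Krt19 and Cldn7, were at or under 0.491 FPKM in every library. Krt7 went the other way, at 0.123 to 0.234 FPKM in the resident and 0.246 to 0.406 in the monocyte-macrophage libraries. Most of the carcinoma sum in the resident libraries was Cdh1. Of the markers called higher, 1 T cell, 6 dendritic cell, 3 mast cell, basophil or eosinophil, 2 red cell and 2 carcinoma genes (Epcam and Krt18) passed the filter through the resident libraries alone. Ccnb1, a cell cycle gene called lower, passed through the monocyte-macrophage libraries alone. The part of these other cells in the values of the genes above was not tested.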

How the data were processed

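The authors deposited 1 table of FPKM for 34652 genes in 6 libraries. Per the submitters' processing notes, the tools were FastQC, HISAT2 and featureCounts, with mm10. For versions, settings, strand, reads with several matches, annotation and gene lengths, the sources used here give nothing. Cells were sorted into medium with serum and sequenced as read pairs, per the labels' protocols. The labels do not say whether libraries are separate mice, and p-values therefore reflect only how these libraries vary, which may be technical. The design text speaks of 10 samples, of which 6 were analysed here.

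Genes at 1 FPKM or more in at least 3 of the 6 libraries (11317) were fitted as log2(FPKM + 1) in limma 3.58.1 (R 4.3.3), with a group term, a mean-variance trend and Benjamini-Hochberg adjustment over all of them. The threshold was an adjusted p of 0.05. The script was tested on simulated data. Count models were not fitted to FPKM. Estimates of depth came from the value of 1 read, with exon lengths of GENCODE M21 on mm10 (94.29% of symbols and all 71 genes matched). Between 40.5% and 44.4% of the values under 20 reads were whole to 0.02 reads, and fragments per gene are thus estimates. A gene with 2 kb of exon gains 0.0294 to 0.0407 FPKM per read.

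Named are the called genes, the most abundant gene of each role, paralogs and well-known macrophage genes, and up to 3 genes per direction with the smallest adjusted p in each related list, with Nfe2l2, Keap1, Bach1, Hmox1 and Slc7a11. The genes and lists were chosen with earlier results of these data known. In the selenoprotein list 10 symbols were matched by older names and Selenof was not matched. Alternatives were another pseudocount (0.1), no filter, a filter of 5 FPKM, 3 scalings, a replicate block, no trend, leaving out each library and a term for Y-linked RNA, 15 in all. Shared sequence was counted as 50-base stretches of GENCODE M21 transcripts. Ratios were tested by 2-sided exact permutation in scipy 1.17.1. Lists of NK, B, platelet, fibroblast, endothelial and neural markers were also summed, and gave 4 of 4, 3 of 3, 0 of 1, 1 of 1, 1 of 2 and 0 of 1 tested genes higher and none lower, of which 2 NK, 1 B, 1 fibroblast and 1 endothelial gene passed the filter through the resident libraries alone. Macrophage markers gave 3 higher and 1 lower of 8, and border macrophage markers 10 higher of 10.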

Additional observations from a re-analysis of the deposited data

How the results depend on the processing

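Among the 14 called genes, 7 kept their call under every alternative that tested them (Mgst1, Gsr, Gstm1, Gstm2-ps1, Prdx6, Prdx5 and Txnrd3), and 7 lost it under at least 1 (Gpx1, Sod1, Sod2, Txndc5, Txndc11, Gstt2 and Gstm5). In the related lists Trim21, Slc1a5, Msra, Glrx and Selt lost their calls under other alternatives as well as without single libraries. Leaving out each library in turn gave 2 to 5 genes higher and 6 to 10 lower; without resident library 2 or 3 or monocyte-macrophage library 2 there were 2 higher, and without resident library 2 there were 6 lower. For all genes the same step gave 780 to 1220 lower, lowest without resident library 2. A filter of 5 FPKM tested 28 of the 71 genes, leaving out Txnrd3, Gstt2 and Gstm5 among others, and called 1 higher, and for all genes 1247 higher of 6579 tested. Quantile normalization called 1799 of all genes higher and 1702 lower, against 2249 and 1204. With the replicate number as a block, 3 genes were higher and 7 lower. Deviations of same-numbered libraries correlated at 0.189, -0.147 and -0.089. The largest correlation between groups, 0.386, was of resident library 3 with monocyte-macrophage library 2, those with more Y-linked RNA. With 3 libraries a group these values cannot decide whether libraries were paired. Signs turned only for genes not called. Left-out libraries gave these ranges: Prdx1 -0.279 to 0.148 (highest without monocyte-macrophage library 3), Prdx2 -0.097 (without monocyte-macrophage library 2) to 0.185, Txnip -0.037 (without monocyte-macrophage library 3) to 0.294, and Txnrd1 -0.142 to 0.017 (without resident library 2). Those of Prdx3 were -0.084 to 0.145, below 0 without resident library 2 (-0.039) or monocyte-macrophage library 2 (-0.084), and those of Slc7a11 -0.586 to 0.163, above 0 without the same libraries (0.119 and 0.163). Prdx3 also turned under median-of-ratios scaling (-0.050) and after quantile normalization (-0.003), as did Txnrd2 in the latter (-0.076). The cause was not tested. With 3 libraries a group and estimated fragments in single digits for Gstm5 in the monocyte-macrophages, small differences of low genes could not be resolved.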
